A study of Mus musculus with 24 samples.

Results

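Rpl22, a protein of the large ribosomal subunit, is the protein that carries the epitope in RiboTag mice, and Rpl22l1 is its paralog. The rows named RPL22 and RPL22L1 in the deposited count table were followed here through every library, which makes 2 genes of the 51733 in the table. Both passed the filter on low counts in every comparison. The table pairs Rpl22 with transcript ENSMUST00000139685 and Rpl22l1 with ENSMUST00000043867. RNA came from the hippocampus of 12 adult male mice on a C57BL/6 background, 2 to 3 months old, with both hippocampi of a mouse pooled. Each mouse gave an input library of the lysate and a library of the RNA that an antibody to the HA epitope pulled down with tagged ribosomes. Knock-in (cKI) mice were homozygous for eIF2α with alanine at its phosphorylated serine, and carried a floxed transgene and Cre under the CaMKIIα promoter. Control mice, labelled Standard, carried the same Cre. What the floxed transgene encodes and which eIF2α alleles control mice carried are not described here. Mice of each genotype were naive or were taken 1 h after fear conditioning, so that genotype, training and fraction make 8 groups of 3 libraries. The number of RiboTag alleles per mouse is not given in the sources used here, and an immunoprecipitate from mice without the tag was not analysed here.

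In RiboTag mice the last coding exon of Rpl22 is flanked by loxP sites and followed by a second version of that exon that ends in the HA epitope, so Cre exchanges the ending of the protein in the cells where it acts. The CaMKIIα promoter is active mainly in excitatory forebrain neurons. RPL22 sits on the surface of the large subunit, binds RNA and can be lost without stopping translation, and RPL22L1 can take its place. RPL22 is also known to bind the mRNA of its paralog and to lower its level. The table holds 1 count per gene, so the tagged and the untagged Rpl22 mRNA cannot be told apart, and neither can more cells and more RNA per cell.

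Libraries held 28.8 to 37.7 M counts in inputs and 30.6 to 43.5 M in immunoprecipitates. Levels are CPM, counts scaled to a common library size, here with TMM, a method that aligns the bulk of genes between libraries. TMM factors were 1.08 to 1.14 in inputs and 0.878 to 0.927 in immunoprecipitates. With library totals alone the median gene therefore lay at a log2 immunoprecipitate/input ratio of -0.31, and with TMM at -0.01. Most marker lists followed the tag: 6 of 6 excitatory neuron genes were higher in immunoprecipitates (median log2 fold change 1.21), and 6 of 6 inhibitory neuron genes (median -2.05) and 5 of 5 genes each of astrocytes (median -4.09), oligodendrocytes (median -4.02) and microglia (median -4.69) were lower. Markers of dentate granule cells, which are excitatory too, were less uniform, with Dsp higher (0.68) and Prox1 (-0.23) and C1ql2 (0.50) not called, and of 4 choroid plexus genes Kl was higher (0.98) and 2 were lower. Summed astrocyte markers lay at 1320 to 1490 CPM in inputs and at 84.2 to 136 CPM in immunoprecipitates, and no marker list other than blood held a member that failed the filter. A pair of libraries stood apart in ribosomal protein counts. The immunoprecipitate of naive cKI replicate 2 held 1946 CPM over the 50 other Rpl genes, where the other 11 held 1402 to 1627, and the input of naive control replicate 2 held 1985 CPM, where the other 11 held 1398 to 1590.

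Rpl22 mRNA was far higher in the immunoprecipitate than in the input of every mouse. Naive control inputs had 193, 162 and 171 CPM of Rpl22 in replicates 1 to 3, and their immunoprecipitates had 730, 660 and 667 CPM. Control inputs at 1 h had 196, 155 and 170 CPM, against 952, 754 and 797 CPM in the immunoprecipitates. Naive cKI inputs had 251, 163 and 273 CPM, against 930, 628 and 1020 CPM. The lowest immunoprecipitate of all, naive cKI replicate 2, still lay above the highest input. Inputs of cKI mice at 1 h had 215, 170 and 185 CPM, against 1030, 1030 and 873 CPM. Over 12 mice the level was 192 ± 37.2 CPM in inputs and 840 ± 153 CPM in immunoprecipitates (SD, n = 12), from 5575 to 9227 and 20677 to 34471 counts. By the quasi-likelihood test of edgeR, Rpl22 was 4.37-fold higher in the immunoprecipitate, or 2.13 on the log2 scale (SE 0.09, adjusted p = 3.2e-14). This value was 1.82 with library totals in place of TMM. In that comparison 42.8% of the 17453 genes tested were called higher and 43.1% lower. A complete separation like that of Rpl22, all 12 immunoprecipitates above all 12 inputs, was seen in 24.4% of genes.

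**Figure D1:**
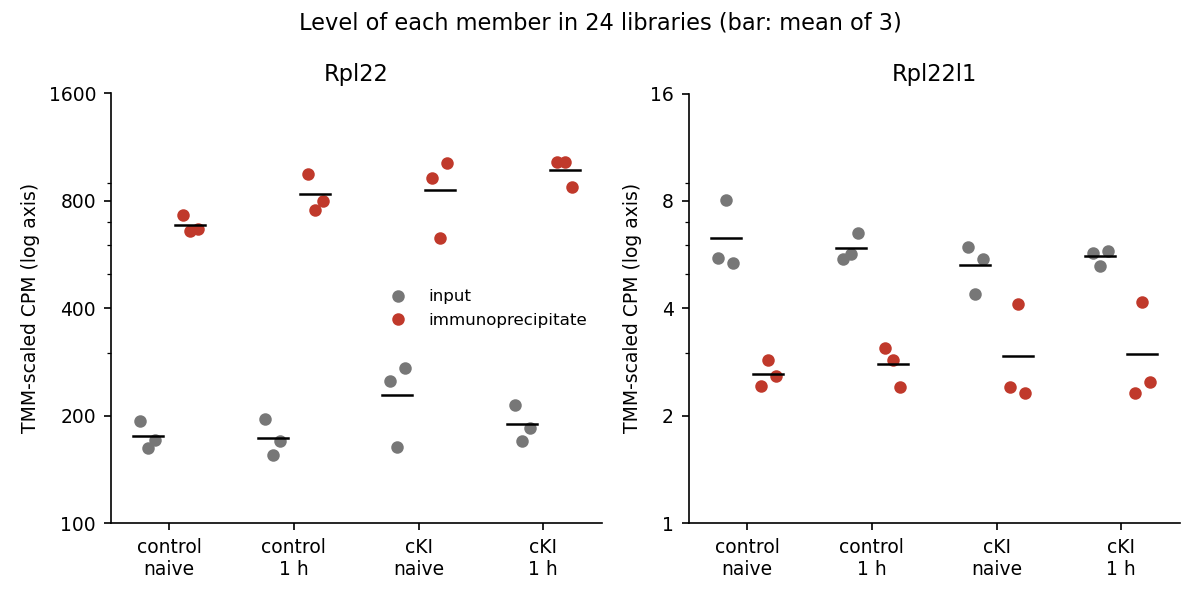
Level of Rpl22 (left) and Rpl22l1 (right) in TMM-scaled CPM on log axes, 1 point per library, grey for inputs and red for immunoprecipitates, with a bar at the mean of 3. Rpl22 immunoprecipitates (628 to 1030 CPM) lie above all inputs (155 to 273 CPM), and Rpl22l1 immunoprecipitates (2.31 to 4.17 CPM) lie below all inputs (4.40 to 8.04 CPM).

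The enrichment of Rpl22 was near the top of the whole table. Its log2 fold change ranked 14 among 17453 genes, and 3 among the 11235 genes whose log2 CPM averaged 2 or more. Only Lefty1 (log2 fold change 2.30), a secreted inhibitor of Nodal signalling, and Wnt2 (2.17), a Wnt ligand, lay above it there. The next genes were 6330420H09Rik (2.12) and Pidd1 (2.06), a death-domain protein of the PIDDosome. Camk2a, whose promoter drives Cre, was 0.96 higher on the log2 scale (SE 0.07, adjusted p in edgeR = 1.7e-11), from 2630 ± 256 CPM to 5110 ± 601 CPM (SD, n = 12).

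The ratio held in each group of mice. The log2 immunoprecipitate/input fold change of Rpl22 in the edgeR fit was 1.97 (SE 0.18, adjusted p = 1.6e-08) in naive controls and 2.26 (SE 0.18, adjusted p = 2.5e-09) in controls at 1 h. It was 1.91 (SE 0.18, adjusted p = 2e-08) in naive cKI mice and 2.37 (SE 0.18, adjusted p = 1.3e-09) in cKI mice at 1 h. In these 4 comparisons 70%, 70.4%, 73.5% and 72.1% of all genes were called in either direction, in the same order.

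Other genes for ribosomal proteins did not share this enrichment in size. Of 50 other Rpl genes, 48 passed the filter. With TMM 22 were higher and 14 lower in immunoprecipitates, with a median log2 fold change of 0.15 beside -0.01 for all genes. With library totals 4 were higher and 24 lower. Of 32 Rps genes, which encode the small subunit, 8 were higher and 11 lower (median -0.03), and with library totals 7 and 21. Library totals moved all genes in the same way. Of 17453 genes 14707 were then called, 4419 of them (30%) higher. The medians with library totals were -0.15 for Rpl genes, -0.33 for Rps genes and -0.31 for all genes. Among the highest other Rpl genes were Rpl36 (0.83), Rpl12 (0.82), Rplp2 (0.59) and Rpl7 (0.56), all called with TMM. Those levels are low, at 0.532 ± 0.121 CPM for Rpl36 in inputs and 1.95 ± 0.457 CPM for Rpl12 (SD, n = 12). The highest Rps gene was Rps28, at 1.25, and its level was low too, at 0.736 ± 0.14 CPM in inputs and 1.75 ± 0.327 CPM in immunoprecipitates (SD, n = 12). Among the lowest Rpl genes were Rpl30 (-0.66), Rplp1 (-0.58), Rpl32 (-0.48) and Rpl37a (-0.45).

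Many rows of this family hold fewer counts than such abundant mRNAs usually give. Of the 50 other Rpl rows, 15 had a mean under 5 CPM in inputs, and their median was 18.8 CPM. Of 171 rows named as Rpl pseudogenes only 2 passed the filter, and how reads that match several copies were counted is not given in the sources used here. Values of single ribosomal protein genes are uncertain to that extent. Rpl22 has such a copy, Rpl22-ps1, with 6 to 24 counts in inputs and 91 to 163 in immunoprecipitates. That pseudogene row had the highest fold change of all 17453 genes, 3.27 on the log2 scale (SE 0.15, edgeR adjusted p = 1.6e-15), from 0.385 ± 0.142 to 3.72 ± 0.766 CPM (SD, n = 12). Its count was 0.0975 to 0.263% of that of Rpl22 in inputs and 0.307 to 0.484% in immunoprecipitates. The log2 ratio of the pseudogene to Rpl22 rose in 12 of 12 mice, by 1.16 ± 0.517 (SD; exact sign-flip test, two-sided, p = 0.00049, the smallest it can give; adjusted p = 0.0016 over 13 tests of ratios). Whether these are reads of Rpl22 was not tested.

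**Figure D2:**
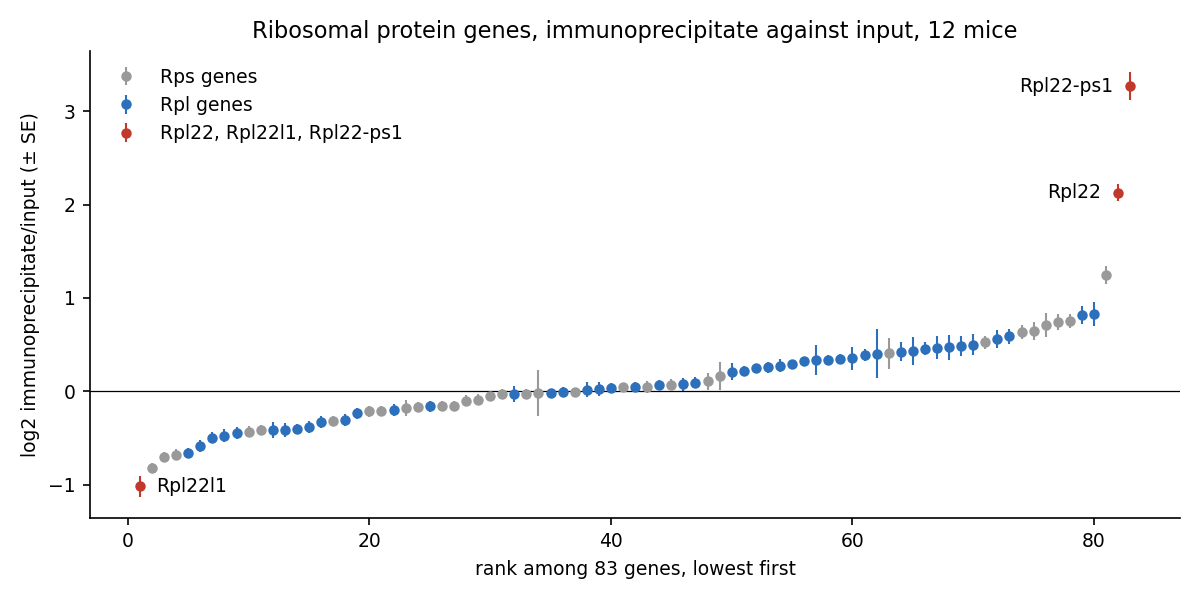
Log2 immunoprecipitate/input fold change with its SE (vertical axis) for 83 genes in rank order (horizontal axis): 48 other Rpl genes in blue, 32 Rps genes in grey, and Rpl22, Rpl22l1 and Rpl22-ps1 in red. Rpl22 (2.13) and Rpl22-ps1 (3.27) lie above all others, the highest of which is Rps28 (1.25, with a mean of only 0.736 CPM in inputs), and Rpl22l1 (-1.02) is the lowest.

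Rpl22l1 went the other way and was lower in the immunoprecipitate of every mouse. Naive control inputs had 5.52, 8.04 and 5.35 CPM of Rpl22l1, and their immunoprecipitates 2.43, 2.87 and 2.58 CPM, in replicates 1 to 3. Control inputs at 1 h had 5.50, 5.69 and 6.52 CPM, against 3.09, 2.86 and 2.41 CPM. Naive cKI inputs had 5.94, 4.40 and 5.51 CPM, against 2.40, 4.11 and 2.32 CPM. Inputs of cKI mice at 1 h had 5.73, 5.27 and 5.80 CPM, against 2.31, 4.17 and 2.48 CPM. In 10 of 12 mice the immunoprecipitate lay at or below 3.09 CPM, and replicate 2 of each cKI group stood above that. All 12 immunoprecipitates lay below all 12 inputs, as in 23.4% of genes. Counts were low, 176 to 305 per input and 65 to 142 per immunoprecipitate, so counting error alone gave a coefficient of variation of up to 12.4%.

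Over all mice Rpl22l1 fell from 5.77 ± 0.866 CPM to 2.84 ± 0.657 CPM (SD, n = 12), or -1.02 on the log2 scale (SE 0.11, adjusted p in edgeR = 8e-09), which is 2.03-fold lower. With library totals it was -1.32. Among all 17453 genes it ranked 4336 from the bottom. Among the ribosomal protein genes it was the lowest of the 83 shown, below Rps29 at -0.82 (SE 0.05). By group the log2 fold change was -1.26 (SE 0.22, adjusted p = 2.1e-05) in naive controls and -1.08 (SE 0.22, adjusted p = 0.00015) in controls at 1 h. It was -0.84 (SE 0.22, adjusted p = 0.0015) in naive cKI mice and -0.90 (SE 0.22, adjusted p = 0.00078) in cKI mice at 1 h. Library identifiers hold a number, 4, 5 or 6, which is called lane number here although the labels do not say what it stands for. With it as a covariate, the values in cKI mice no longer passed, at -0.50 (adjusted p = 0.25) in naive mice and -0.94 (adjusted p = 0.082) at 1 h. This number is largely tied to genotype and fraction here.

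Ratios taken within a library do not depend on library scaling, but they do depend on how each row was counted. Of the 50 other Rpl rows, Rpl8 (231 CPM) and Rpl4 (215 CPM) were high in inputs, and 15 had a mean under 5 CPM. The percentages below are therefore shares of the counts in these rows and not of ribosomal protein mRNA. The count of Rpl22 was 8.17 to 18.3% of the summed counts of the 50 other Rpl genes in inputs (median 12.2%) and 32.3 to 67.9% in immunoprecipitates (median 58.7%). The log2 of this ratio rose by 2.12 ± 0.296 from input to immunoprecipitate (SD, 12 of 12 mice; exact sign-flip test, two-sided, p = 0.00049, adjusted p = 0.0016). Rpl22l1 relative to the same sum fell by 1.05 ± 0.278 on the log2 scale, again in 12 of 12 mice (exact sign-flip test, p = 0.00049, adjusted p = 0.0016). Against Rpl22 itself the paralog fell further. This follows from the changes just given, since Rpl22 rose and Rpl22l1 fell in every mouse, and its test adds no separate result. Rpl22l1 counts were 2.02 to 4.96% of Rpl22 counts in inputs and 0.224 to 0.655% in immunoprecipitates, a log2 fall of 3.17 ± 0.421 (SD, 12 of 12 mice; exact sign-flip test, p = 0.00049, adjusted p = 0.0016). The highest of these shares in immunoprecipitates, 0.655%, was that of naive cKI replicate 2, where Rpl22 was also lowest against the other Rpl genes, at 32.3%. With any 1 mouse left out the 3 changes kept their direction and passed, at 2.08 to 2.18, -1.1 to -1.02 and -3.27 to -3.12.

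Enrichment of Rpl22 was higher in the mice taken 1 h after conditioning, though the test across all genes did not pass. The log2 immunoprecipitate/input ratio of Rpl22 in single naive mice was 1.92, 2.03 and 1.97 in controls and 1.89, 1.95 and 1.90 in cKI. At 1 h it was 2.28, 2.29 and 2.22 in controls and 2.26, 2.61 and 2.24 in cKI. The 6 mice at 1 h all lay above the 6 naive mice, which was so for 43 of 17453 genes (0.246%). In edgeR the ratio was 0.38 higher at 1 h on the log2 scale (SE 0.18, 95% interval 0.01 to 0.75, adjusted p = 1), where 0.00573% of genes were called. With each mouse as a replicate block the difference was 0.37 (SE 0.06, adjusted p = 0.13). Relative to the other Rpl genes it was 0.34 (two-sided exact permutation test of 6 against 6 mice, p = 0.039, adjusted p = 0.072), a test added after the values were seen, and without naive control replicate 2 it was 0.45 (adjusted p = 0.0056 by the same exact permutation test). Among the 8 mice whose immunoprecipitates had lane number 6, the naive ones lay at 1.92 to 2.03 and those at 1 h at 2.22 to 2.61. These naive mice were all controls and those at 1 h were of both genotypes, and the lane numbers of their inputs were not matched. The excitatory marker Camk2a did not separate the same way, at 0.43 to 1.38 in naive mice and 0.68 to 1.08 at 1 h.

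Genotype did not pass for either ratio. The immunoprecipitate/input ratio of Rpl22 differed by 0.02 on the log2 scale between cKI and control mice (SE 0.18, 95% interval -0.35 to 0.39, edgeR adjusted p = 0.96), and that of Rpl22l1 by 0.30 (SE 0.22, 95% interval -0.15 to 0.75, edgeR adjusted p = 0.50), where 0.0229% of genes were called. For Rpl22l1 the training difference was 0.06 (SE 0.22, 95% interval -0.39 to 0.51, edgeR adjusted p = 1), and the mice of each state ranged widely, from -1.48 to -0.10 in naive mice and from -1.43 to -0.34 at 1 h. The SEs and intervals of these differences come from a fit that leaves the input and immunoprecipitate of a mouse unpaired. They can therefore differ from paired ones. With each mouse as a block, none of these differences was called.

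**Figure D3:**
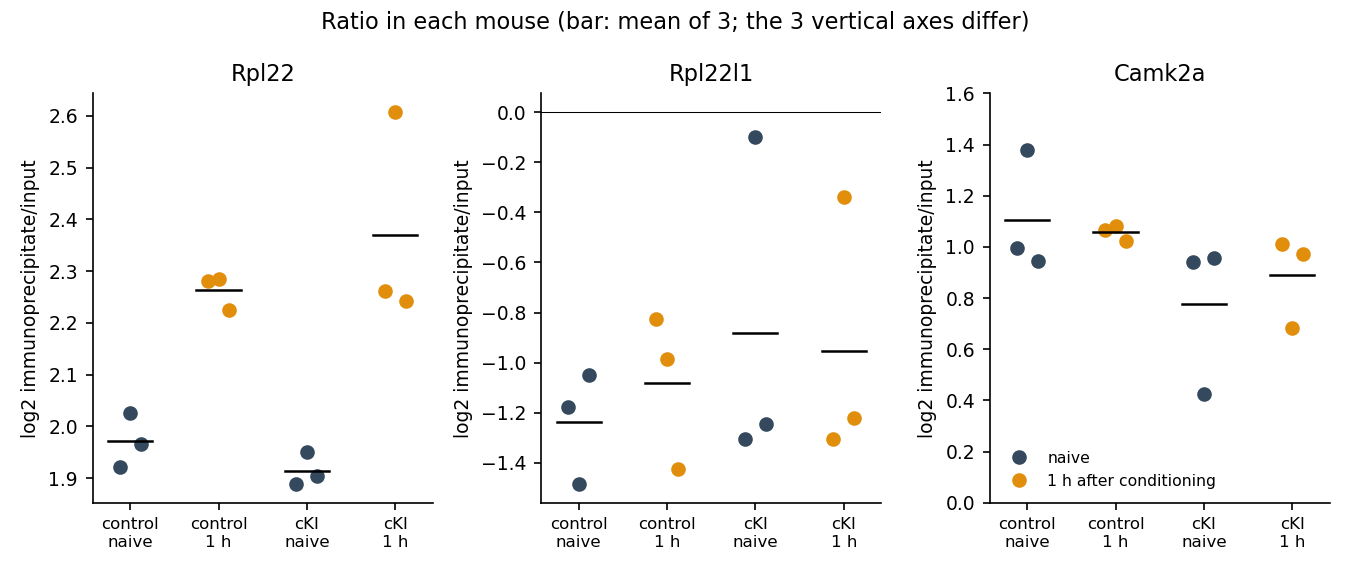
Log2 immunoprecipitate/input ratio in each of 12 mice (vertical axes, which differ between panels) by genotype and training state, for Rpl22, Rpl22l1 and Camk2a, with dark points for naive mice, orange points for mice at 1 h and a bar at the mean of 3. Rpl22 ratios at 1 h (2.22 to 2.61) lie above those of naive mice (1.89 to 2.03), and the Rpl22l1 and Camk2a ratios overlap.

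Within a fraction, the order of the group means of Rpl22 in inputs was naive cKI (229 ± 58.6 CPM), cKI at 1 h (190 ± 22.8), naive control (175 ± 15.8) and control at 1 h (174 ± 20.8; SD, n = 3), and every neighbouring pair overlapped. In immunoprecipitates the order was cKI at 1 h (979 ± 91.7 CPM), naive cKI (861 ± 207), control at 1 h (834 ± 104) and naive control (686 ± 38.6). Of the neighbouring pairs there only the last did not overlap, with 754 to 952 CPM in controls at 1 h and 660 to 730 CPM in naive controls. Mice of the cKI group at 1 h, at 873 to 1030 CPM, lay above naive controls too. How many of all genes separate in this way between groups of 3 was not counted, so nothing is read from these separations. For controls at 1 h against naive controls the edgeR fit gave a log2 fold change of 0.28 (SE 0.16, adjusted p = 0.61). By that fit, which is another criterion than overlap, 0.328% of all genes were called.

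Rpl22 was higher in cKI than in control mice by point estimate in both fractions and did not pass the test in either. As the mean of both training states, the log2 fold change was 0.28 in inputs (SE 0.13, 95% interval -0.003 to 0.561, edgeR adjusted p = 0.25; 3.15% of genes called) and 0.28 in immunoprecipitates (SE 0.11, 95% interval 0.04 to 0.53, edgeR adjusted p = 0.21; 1.69% of genes called). The naive mice alone gave 0.41 in inputs (SE 0.18, adjusted p = 0.27; 0.859% of genes called) and 0.33 in immunoprecipitates (SE 0.16, adjusted p = 0.24; 3.7% of genes called). At 1 h the values were 0.14 in inputs (SE 0.18, adjusted p = 0.86; 0.267% of genes called) and 0.24 in immunoprecipitates (SE 0.16, adjusted p = 0.96; 0.0591% of genes called). In 3 of these 6 comparisons a call appeared when a library of naive cKI replicate 2 was left out, the mouse whose Rpl22 was the lowest of its group in both fractions. Without its input the mean difference in inputs was 0.37 (edgeR adjusted p = 0.048). Without its immunoprecipitate the mean difference in immunoprecipitates was 0.38 (edgeR adjusted p = 0.029) and that of naive mice 0.51 (adjusted p = 0.045). The other 3 passed under none of these omissions, and single libraries moved them from 0.26 to 0.6 in naive inputs, from 0.04 to 0.24 in inputs at 1 h and from 0.16 to 0.35 in immunoprecipitates at 1 h. Within lane number 4, 3 cKI and 2 control naive inputs differed by 0.40 (edgeR adjusted p = 0.50), and within lane number 6, 2 cKI and 3 control immunoprecipitates at 1 h differed by 0.21 (adjusted p = 0.79).

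Relative to the other Rpl genes, Rpl22 was 0.35 log2 units higher in cKI inputs (two-sided exact permutation test of 6 against 6 mice, p = 0.032, adjusted p = 0.070) and 0.17 higher in cKI immunoprecipitates (exact permutation test, p = 0.39, adjusted p = 0.57). Without naive cKI replicate 2 both passed, at 0.40 (adjusted p = 0.042, exact permutation test) and 0.33 (adjusted p = 0.017). Rpl22l1 relative to Rpl22 was 0.40 log2 units lower in cKI inputs (exact permutation test, p = 0.032, adjusted p = 0.070) and 0.18 lower in cKI immunoprecipitates (p = 0.52, adjusted p = 0.61).

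Training moved neither gene past the threshold within a fraction. For Rpl22 the mean over both genotypes was -0.13 in inputs (SE 0.13, edgeR adjusted p = 0.70; 0.818% of genes called) and 0.24 in immunoprecipitates (SE 0.11, 95% interval -0.005 to 0.482, edgeR adjusted p = 0.39; 0.387% of genes called). In control inputs it was 0.01 (SE 0.18, adjusted p = 0.99; 0.737% of genes called) and in cKI inputs -0.26 (SE 0.18, adjusted p = 0.99; 0.0174% of genes called). In cKI immunoprecipitates it was 0.19 (SE 0.16, adjusted p = 0.61; 0.0459% of genes called). The genotype by training interaction of Rpl22 was -0.27 in inputs (SE 0.25, adjusted p = 0.99; 0.0348% of genes called) and -0.09 in immunoprecipitates (SE 0.22, adjusted p = 0.94; 0.0131% of genes called).

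For Rpl22l1 no difference passed either. Its order of means in inputs was naive control (6.30 ± 1.51 CPM), control at 1 h (5.90 ± 0.544), cKI at 1 h (5.60 ± 0.285) and naive cKI (5.29 ± 0.793), and in immunoprecipitates the groups lay between 2.63 ± 0.220 in naive controls and 2.98 ± 1.03 CPM in cKI mice at 1 h (SD, n = 3), with all neighbours overlapping. Between genotypes, as the mean of both training states, the log2 fold change was -0.14 in inputs (SE 0.10, 95% interval -0.36 to 0.08, edgeR adjusted p = 0.45) and 0.13 in immunoprecipitates (SE 0.18, 95% interval -0.26 to 0.52, edgeR adjusted p = 0.73). Between training states it was 0.01 in inputs (SE 0.10, 95% interval -0.21 to 0.23, edgeR adjusted p = 0.97) and 0.06 in immunoprecipitates (SE 0.18, 95% interval -0.33 to 0.45, edgeR adjusted p = 0.92). Over the 14 genotype, training and interaction contrasts of both fractions, edgeR called 0 of 28 tests of the pair, 2 had an unadjusted p under 0.05, both of Rpl22, and DESeq2 called 0. The other ribosomal protein genes gave the same count. Of 47 other Rpl genes edgeR called 0 in any of these contrasts, with 62 of 658 tests at an unadjusted p under 0.05 and 3 calls by DESeq2, and of 32 Rps genes it called 0, with 35 of 448 tests and 5 calls by DESeq2. Among all genes, the number with an unadjusted edgeR p under 0.05 ranged between contrasts. It was 831 to 3533 of 17232 in inputs and 847 to 3399 of 15238 in immunoprecipitates. In the contrasts where Rpl22 had such a p, it was 3036 of 17232 (naive inputs, between genotypes) and 2823 of 15238 (immunoprecipitates, mean genotype difference).

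**Figure D4:**
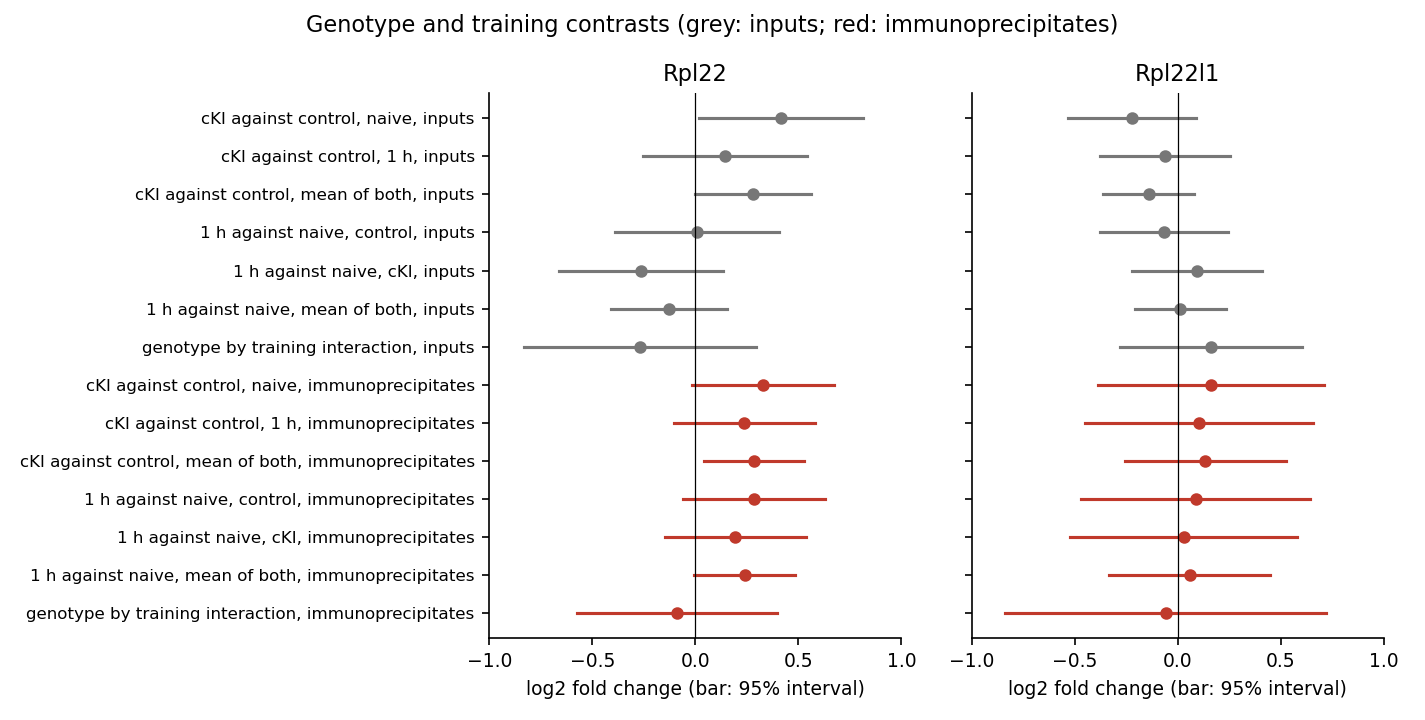
Log2 fold change with its 95% interval (horizontal axis) in 14 genotype, training and interaction contrasts (rows) for Rpl22 and Rpl22l1, grey within inputs and red within immunoprecipitates. Rpl22 points for cKI against control lie between 0.14 and 0.41, and no contrast passed adjustment over all genes.

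Pooled over groups, Rpl22 varied more between mice of 1 group than most ribosomal protein genes, with the widest spread in naive cKI mice. Among 54 tested genes of the family with at least 10 CPM in inputs, the SD of its log2 CPM within groups was 0.24 in inputs, after Rpl5 and Rps23 the highest, where the median of the 53 others was 0.14. In immunoprecipitates it was 0.22, which ranked 6, beside a median of 0.15. In naive cKI mice the coefficient of variation of Rpl22 was 25.6% in inputs and 24% in immunoprecipitates. In the other groups it was 8.99 to 12% and 5.63 to 12.5%. Counting error alone gave Rpl22 a coefficient of variation of at most 1.34%. A mouse with much Rpl22 in its input tended to have much in its immunoprecipitate. Over 12 mice the log2 levels had a Pearson r of 0.65 (permutation p = 0.021, adjusted p = 0.086 over 8 relations) and a Spearman rho of 0.57 (permutation p = 0.059, adjusted p = 0.27). Without the 2 mice farthest from the median, r was 0.61, and in the 8 mice of lane number 6 it was 0.36. Within the 6 naive mice r was 0.995 (exact permutation p = 0.0028) and within the 6 mice at 1 h it was 0.69 (exact permutation p = 0.14), both looked at after the values were seen. For Rpl22l1 the same relation had r = -0.43 (permutation p = 0.19, adjusted p = 0.49) and rho = -0.50 (adjusted p = 0.27).

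The members did not move with each other across mice beyond what permutation gave. Levels of Rpl22 and Rpl22l1 had r = -0.05 in inputs (permutation p = 0.86, adjusted p = 0.86; rho 0.04, adjusted p = 0.92) and r = -0.18 in immunoprecipitates (permutation p = 0.57, adjusted p = 0.76; rho -0.29, adjusted p = 0.41). The latter turned to 0.23 without the 2 mice farthest from the median and to 0.63 in lane number 6.

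The Rpl22l1 ratio was highest in the mice with the least enrichment of Camk2a. The log2 immunoprecipitate/input ratio of Rpl22l1 was -0.10 in naive cKI replicate 2 and -0.34 in replicate 2 of cKI at 1 h, and -1.48 to -0.83 in the other 10 mice. In the same mice the Camk2a ratio was 0.43 and 0.68, against 0.94 to 1.38. Over 12 mice r was -0.83 (permutation p = 0.0017, adjusted p = 0.014) and rho -0.46 (permutation p = 0.14, adjusted p = 0.27). Without naive cKI replicate 2 and naive control replicate 2, the farthest from the median, r was -0.64, and in lane number 6 it was -0.76. Both settings kept replicate 2 of cKI at 1 h. Leaving out the 2 mice with the highest Rpl22l1 ratios together was not tried, so how far r rests on them was not tested. Both ratios come from the same pair of libraries. The median of the 15 astrocyte, oligodendrocyte and microglia markers did not follow, with r = 0.20 (permutation p = 0.53, adjusted p = 0.76; rho 0.31, adjusted p = 0.41). The Rpl22 ratio had r = -0.05 with that of Camk2a (permutation p = 0.86, adjusted p = 0.86; rho 0.36, adjusted p = 0.41) and 0.29 with that of the glia markers (permutation p = 0.36, adjusted p = 0.71; rho 0.46, adjusted p = 0.27). Summed dentate granule cell markers ranged from 243 to 296 CPM in inputs and from 102 to 667 CPM in immunoprecipitates, and their part in any of these values was not tested.

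**Figure D5:**
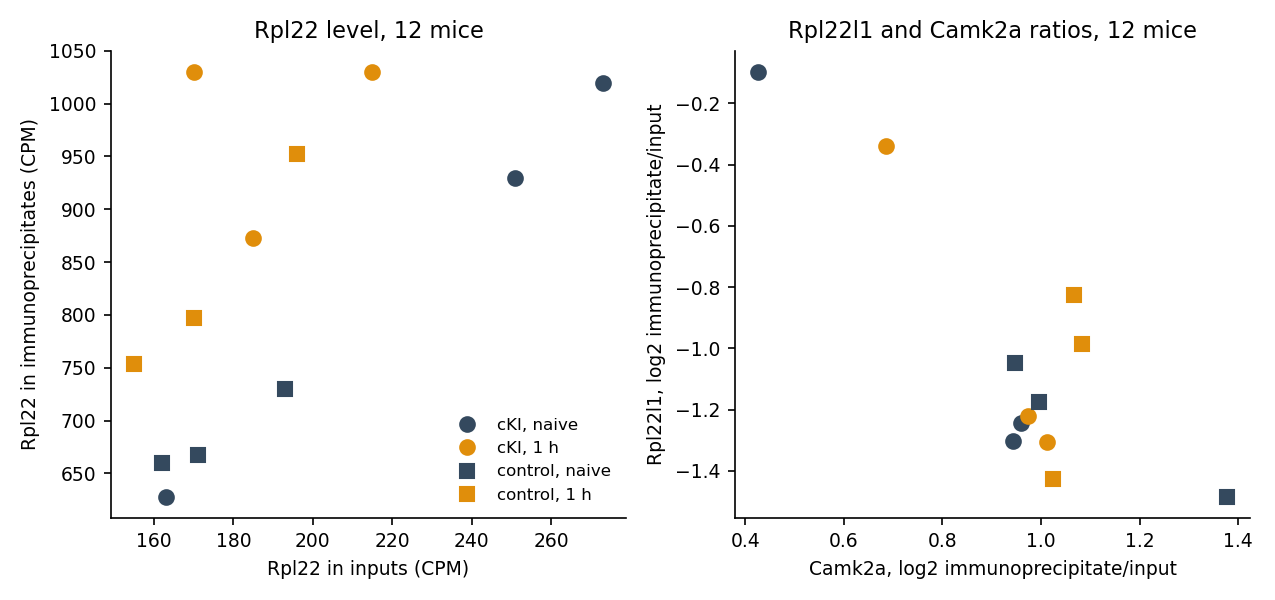
Left, level of Rpl22 in the immunoprecipitate (vertical axis, CPM) against its level in the input of the same mouse (horizontal axis, CPM). Right, log2 immunoprecipitate/input ratio of Rpl22l1 against that of Camk2a; circles are cKI and squares control mice, dark for naive and orange for 1 h, and the 2 mice with the lowest Camk2a ratios (0.43 and 0.68) have the highest Rpl22l1 ratios (-0.10 and -0.34).

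The genes around Rpl22 were looked at because a targeted allele is inherited together with its surroundings. Rpl22l1 does not carry the tag, and its neighbours are given beside them as a description. Tagged ribosomes were pulled down from both genotypes. A contrast between genotypes therefore cannot show the surroundings of an allele that both carry, and no conclusion on it is drawn. In RefSeq order on the GRCm38.p6 assembly, 20 tested genes on each side of Rpl22 were taken. Between genotypes, as the mean of both training states, 2 of these 40 were called in inputs, Acot7, an acyl-CoA thioesterase (log2 fold change -0.18, edgeR adjusted p = 0.025), and Hes5, a Notch target (-0.39, edgeR adjusted p = 0.0067), and 0 of 40 in immunoprecipitates. Around Rpl22l1 the counts were 1 of 40 in inputs, Cldn11, a claudin of myelin (-0.37, edgeR adjusted p = 0.0017), and 0 of 40 in immunoprecipitates. The background in these contrasts was 3.15% and 1.69% of genes. Summed oligodendrocyte markers, too, were lower in cKI inputs. In naive mice they lay at 3290 to 3860 CPM in cKI and 4670 to 5030 CPM in control inputs. At 1 h they lay at 3140 to 3290 CPM and 3540 to 4060 CPM. The part of this difference in Cldn11 or in other genotype contrasts of inputs was not tested.

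The genes most like each member across libraries were ranked, among those averaging a log2 CPM of 2 or more, by Pearson r of log2 CPM, as a description. Over the 12 immunoprecipitates they were Psme3 (r = 0.92), Hus1, Scaf8, Pla2g6 and Irak1 for Rpl22, and Ndufs5 (r = 0.95), Fkbp2, Dnajb2, Mrpl12 and Anapc11 for Rpl22l1. Over the 12 inputs they included Zscan25 (r = 0.93), Tmem178, Aen, Cdc40 and Cul4a for Rpl22, and P4htm (r = 0.93), Ppa2, Guk1 and Sap30bp for Rpl22l1. Rpl22l1 had 25 genes with r over 0.9 among 10809 in immunoprecipitates and 42 among 11820 in inputs, where Rpl22 had 1 in each. Few libraries stood out in Rpl22l1. In immunoprecipitates replicate 2 of naive cKI (4.11 CPM) and of cKI at 1 h (4.17 CPM) lay above the others (2.31 to 3.09 CPM). In inputs naive control replicate 2 (8.04 CPM) lay above the others (4.40 to 6.52 CPM). How far these r values rest on such libraries was not tested. None of the nearest genes named was in the Rpl or Rps list, Mrpl12 encodes a mitochondrial ribosomal protein, and the values share libraries and scaling.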

How the data were processed

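Raw read counts per gene of 24 libraries were deposited in 1 table by the authors, made from polyadenylated RNA with a directional kit, per the labels' protocols. Cutadapt, Bowtie and DESeq2 were used, per the submitters' processing notes. For the counting tool, genome build, annotation and strand setting nothing was given in the sources used here, so no positions are printed. All sample columns were mapped, and 0 were left out.

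Counts were fitted with edgeR 4.0.16 (TMM, filterByExpr, robust quasi-likelihood test, 1 mean per group, Benjamini-Hochberg adjustment over all genes tested, threshold 0.05) in R 4.3.3. Comparisons across fractions used all 24 libraries and comparisons within a fraction its 12. Intervals are 95% from the fit's t distribution. Ratios within a library had 0.5 added to the members' counts and were tested by exact sign-flip or permutation over mice, adjusted over 13 tests. Correlations used 100000 permutations. Alternatives were DESeq2 1.42.0 size factors and Wald test, library totals, no filter, the number in the library identifier (called lane number, an assumption), blocks, single lanes, and each library or mouse left out. Scripts were tested on simulated data. No explanation was weighed, and at depths of 28.8 M or more 1 count is a small fraction of 1 CPM.

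Input and immunoprecipitate with the same mouse label come from the same animal. Their deviations from the group means correlated at 0.04 to 0.29 (median 0.11, 12 pairs), and the block by mouse changed no call of either gene. Both members and all gene lists were chosen with earlier results of these data known. Named genes are the members, Camk2a, rows starting with RPL22, the 5 highest and lowest Rpl genes, the 5 most enriched and the 5 most like each member, with called neighbours and the extremes of the Rps list added after their values were seen. Some genes that this rule chose are not reported here.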

Additional observations from a re-analysis of the deposited data

How the results depend on the processing

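The immunoprecipitate against input changes of Rpl22, Rpl22l1 and Rpl22-ps1 kept direction and call under all 30 alternatives, at 1.82 to 2.24, -1.32 to -0.96 and 2.97 to 3.43. By group, lane number as a covariate took the call from Rpl22l1 in naive cKI mice (-0.50) and cKI mice at 1 h (-0.94). Replicate numbers were not taken to pair mice across groups (correlations of -0.09 to 0.08 in inputs and -0.10 to 0.18 in immunoprecipitates); with them as a replicate block the genotype difference of Rpl22 was 0.27 in inputs (adjusted p = 0.092) and 0.28 in immunoprecipitates (adjusted p = 0.17), and no call of either gene changed. Signs turned only among differences that passed under no setting.

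Values of those signs, where another setting turned them, were as follows. With lane number as a covariate, the Rpl22 ratio between genotypes was -0.01, the Rpl22l1 ratio between training states -0.25, and Rpl22l1 at 1 h against naive 0.15 in control inputs, -0.35 in cKI immunoprecipitates and -0.13 as the mean of both genotypes in immunoprecipitates, with an interaction of -0.05 in inputs. With library totals, 1 h against naive was 0.0 for Rpl22 in control inputs, 0.0 for Rpl22l1 as the mean of inputs and -0.01 for Rpl22l1 in cKI immunoprecipitates. With the median of the other Rpl genes as reference, the Rpl22l1 ratio at 1 h against naive was -0.02. The correlation of the glia with the Rpl22 ratio was -0.21 without the 2 mice farthest from the median, that of the glia with the Rpl22l1 ratio -0.04 in lane number 6, and that of Rpl22 with Rpl22l1 in immunoprecipitates 0.23 and 0.63 in these settings. The cause was not tested.
With each library or mouse left out in turn, Rpl22 between genotypes ranged from 0.2 to 0.37 in inputs, from 0.21 to 0.38 in immunoprecipitates and from 0.18 to 0.51 in naive immunoprecipitates, and relative to the other Rpl genes from 0.26 to 0.4 in inputs and from 0.12 to 0.33 in immunoprecipitates. The highest of each came without naive cKI replicate 2 and passed. The Rpl22 ratio to other Rpl genes at 1 h against naive ranged from 0.24 to 0.45, and passed without naive control replicate 2. Among values that passed under no omission, those whose sign turned ranged, for Rpl22, from -0.07 to 0.1 for its ratio between genotypes, from -0.09 to 0.09 for 1 h against naive in control inputs and from -0.28 to 0.06 for the interaction in immunoprecipitates. With no change of sign, Rpl22 between genotypes ranged from 0.26 to 0.6 in naive inputs, 0.04 to 0.24 in inputs at 1 h and 0.16 to 0.35 in immunoprecipitates at 1 h, at 1 h against naive from -0.45 to -0.12 in cKI inputs, -0.22 to -0.05 as the mean of inputs, 0.01 to 0.34 in cKI and 0.17 to 0.35 in control immunoprecipitates and 0.15 to 0.31 as their mean, and its interaction in inputs from -0.46 to -0.13. Rpl22l1 between genotypes ranged from -0.32 to -0.03 in naive inputs, from -0.19 to -0.05 as the mean of inputs and, as its ratio, from 0.11 to 0.37. Where signs turned, Rpl22l1 values in inputs ranged from -0.11 to 0.01 between genotypes at 1 h, and for 1 h against naive from -0.16 to 0.12 in controls, -0.02 to 0.18 in cKI and -0.04 to 0.11 as their mean, with an interaction of -0.03 to 0.25. In immunoprecipitates they ranged between genotypes from -0.16 to 0.31 in naive mice, -0.22 to 0.26 at 1 h and -0.03 to 0.21 as their mean, and for 1 h against naive from 0.0 to 0.17 in controls, -0.3 to 0.35 in cKI and -0.11 to 0.22 as their mean, with an interaction of -0.38 to 0.26. The Rpl22l1 ratio at 1 h against naive ranged from -0.1 to 0.21, and relative to the other Rpl genes from -0.1 to 0.1, and the genotype difference in immunoprecipitates relative to those genes from -0.12 to 0.05.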
